A study of Mus musculus with 12 samples.

Results

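Promoter-flanking peaks are open chromatin regions that lie more than 1 kb and up to 3 kb from the assigned gene start, next to its core promoter rather than on it. They were taken as all peaks that the deposited tables annotate as promoter at 1 to 2 kb or at 2 to 3 kb, a choice by position that uses no measured value. This gave 13228 of 139999 peaks (9.45% of all peaks), 7255 at 1 to 2 kb and 5973 at 2 to 3 kb. The peaks come from 12 ATAC-seq libraries labelled as macrophages derived from mouse bone marrow, 2 libraries in each of 6 groups. ATAC-seq uses the Tn5 transposase to cut and tag DNA that nucleosomes leave exposed, so reads pile up where chromatin is open.

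All donors were male C57BL/6J mice aged 8 weeks at allocation, either controls or made diabetic with streptozotocin, a toxin of pancreatic beta cells. Streptozotocin was injected at 42 to 45 mg/kg per day for 5 days, and mice above 16.9 mmol/L blood glucose then had 6 weeks of hyperglycaemia. The first phase holds a diabetic and a healthy group, with no culture and no collection time given in the labels. Cells of the rest phase, diabetic-trained and untrained, had 7 days with M-CSF, the growth factor that turns marrow progenitors into macrophages, in 5 mmol/L glucose. Those of the second phase had the same culture and then 10 ng/mL of IFN-γ plus 100 ng/mL of LPS for 16 h, the classical inflammatory stimulus. It is not stated whether both libraries of a group stem from different mice, so a p-value reflects library-to-library spread that may be technical. The tables do not tie their pair of mean columns to diabetic or control cells: group A is the first column and group B the second, and A of one phase need not be A of another. Diabetic and control cells are therefore not named below.

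A core promoter is where RNA polymerase assembles, and in most housekeeping genes it is a CpG island that is kept free of nucleosomes in nearly every cell type. Regions a short way up or downstream often hold binding sites of signal-dependent and lineage-specific factors, and can act as proximal enhancers or as starts of non-coding RNAs. In macrophages, PU.1, C/EBP, AP-1, interferon-regulatory factors and NF-κB are the best known factors at such sites.

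Sequences were available where a flanking peak overlapped a RefSeq promoter window, which runs from 250 bases before to 50 bases after an annotated start (GRCm38.p6, the same build as mm10). Only 77 flanking peaks overlapped a window, mostly at the start of another, non-coding gene nearby, and 39 shared at least 200 bases outside the chromosome not printed here. Of these 39, 5 were higher and 12 lower in the rest than in the first phase at a limma adjusted p under 0.05. Of all peaks 19.8% were higher and 18.7% lower, and of core promoter peaks 12.5% and 31.9%. The 6 shown are the 2 with the largest fold in each direction and the 2 other peaks named below that have a window, those of the itaconate enzyme Acod1 and of the very open Cpeb4. Each stretch is named for the gene that its peak is assigned to. In the order printed, the windows belong to Gm42005, Gm46248, Gm34253, Gm20161, Gm41235 and Cpeb4 itself. The Cpeb4 stretch thus lies at a RefSeq start of Cpeb4, though it is annotated as flanking. All are printed 5′ to 3′ on the strand of the window, and capitals mark a match to 1 of 13 short motifs searched on both strands.
Coro1c: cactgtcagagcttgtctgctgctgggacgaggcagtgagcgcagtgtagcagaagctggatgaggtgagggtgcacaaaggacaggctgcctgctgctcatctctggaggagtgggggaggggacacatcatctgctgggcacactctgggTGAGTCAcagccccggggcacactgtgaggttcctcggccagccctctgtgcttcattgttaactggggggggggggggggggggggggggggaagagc
Capn8: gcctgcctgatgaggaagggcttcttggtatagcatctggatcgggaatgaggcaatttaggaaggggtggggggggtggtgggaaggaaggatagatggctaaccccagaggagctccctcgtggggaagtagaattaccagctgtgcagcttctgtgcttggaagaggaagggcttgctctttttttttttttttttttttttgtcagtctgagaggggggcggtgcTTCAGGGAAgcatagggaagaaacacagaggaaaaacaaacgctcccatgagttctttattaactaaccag
Bloodlinc: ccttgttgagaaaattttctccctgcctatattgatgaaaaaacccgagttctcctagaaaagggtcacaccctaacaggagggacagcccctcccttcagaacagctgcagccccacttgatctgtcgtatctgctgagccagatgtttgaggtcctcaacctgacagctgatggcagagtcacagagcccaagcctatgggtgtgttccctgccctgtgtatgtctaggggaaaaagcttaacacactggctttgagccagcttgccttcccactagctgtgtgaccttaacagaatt
Cmtr1: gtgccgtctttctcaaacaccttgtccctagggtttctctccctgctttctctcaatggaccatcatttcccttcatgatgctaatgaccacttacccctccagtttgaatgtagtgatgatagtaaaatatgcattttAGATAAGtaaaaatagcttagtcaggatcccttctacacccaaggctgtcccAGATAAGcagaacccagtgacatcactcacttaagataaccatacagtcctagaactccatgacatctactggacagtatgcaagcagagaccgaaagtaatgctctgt
Acod1: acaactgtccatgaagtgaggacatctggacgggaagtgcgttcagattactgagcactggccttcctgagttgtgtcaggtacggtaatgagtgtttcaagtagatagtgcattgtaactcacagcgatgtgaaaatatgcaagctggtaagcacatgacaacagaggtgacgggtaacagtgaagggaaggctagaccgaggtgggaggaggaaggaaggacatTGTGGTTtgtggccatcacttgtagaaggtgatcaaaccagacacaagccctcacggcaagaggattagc
Cpeb4: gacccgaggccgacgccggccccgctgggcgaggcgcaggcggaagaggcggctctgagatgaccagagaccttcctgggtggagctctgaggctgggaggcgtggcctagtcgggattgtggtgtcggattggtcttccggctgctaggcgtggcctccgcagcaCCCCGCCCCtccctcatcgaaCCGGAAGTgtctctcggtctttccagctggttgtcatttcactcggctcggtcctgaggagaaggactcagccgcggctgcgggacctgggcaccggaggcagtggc
The Coro1c stretch (chr5:113873106-113873356, + strand), downstream of the start of an actin-binding coronin, holds TGAGTCA, a match to the AP-1 motif TGANTCA that 7.93% of all 27025 windows contain. Capn8, a calpain protease (chr1:182562641-182562940, + strand), has TTCAGGGAA, which fits the STAT motif TTCNNNGAA found in 8.47% of windows. No motif was matched at Bloodlinc, a long non-coding RNA of red cell precursors (chr11:102375219-102375518, + strand). Upstream of Cmtr1, a cap methyltransferase (chr17:29658280-29658579, − strand), the GATA motif AGATAAG stands at 2 places, against 3.07% of windows with any. The Acod1 stretch (chr14:103048695-103048990, − strand) holds the RUNX motif TGTGGTT, present in 5.37% of windows. Cpeb4, an RNA-binding protein (chr11:31870690-31870983, + strand), has CCCCGCCCC, the reverse complement of the SP and KLF motif GGGGCGGGG (11.6% of windows), and the ETS motif CCGGAAGT (4.00%). A match is a description of letters and not a binding site, and a window with none says only that these letters are missing there.

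The levels at 3 of these sites are given here, on a log2 scale of quantile-scaled reads plus 1 that is called the level below. The Coro1c peak stood at 6.87, 7.24, 6.96 and 7.39 in first-phase libraries A1, A2, B1 and B2. In the rest phase it stood at 9.29, 9.24, 9.29 and 9.30, and in the second at 9.33, 9.13, 9.58 and 9.02. All later libraries were above all first-phase ones. At Bloodlinc the first-phase levels were 8.00, 7.97, 8.41 and 7.33, and those of the rest phase 3.18, 3.36, 3.70 and 3.65, with no overlap. Cpeb4 was open throughout, between 9.01 and 9.76 in the 12 libraries. It has 25 CpG sites in its 294 printed bases (67.7% GC), while the Bloodlinc stretch has 2 in 300 bases (50.3% GC).

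The libraries held 3827344 to 18602644 reads in peaks, and the median flanking peak 10 to 67 reads. Reads per library were recovered exactly from the deposited group means in 13204 flanking peaks, and 24 with a listed 0 in some group were not tested on reads. Markers of macrophages had peaks for 10 of 10 genes, none at 0 in a library, with sums of 378 to 566 reads per 1000000 reads in peaks in the first phase, 830 to 1089 in the rest phase and 930 to 1094 in the second. Neutrophil markers (10 of 10 with peaks, none at 0) summed to 577 to 1433, 169 to 221 and 179 to 276, so in the first phase their sums exceeded those of the macrophage markers. Libraries are counted from 1 within a group by a scaling value, with no tie to the replicate numbers of the labels. First-phase A1 and A2 were nearly as alike over flanking peaks as repeat draws of the same reads (variance 1.11 times sampling noise) and were counted as 1 sample between phases, so the first phase has n = 3. Second-phase A1 was closest to rest-phase A1 (1.88 times sampling noise and a correlation of levels of 0.976), while second-phase A1 and A2 had 15.7 times and 0.797. Second-phase A2 and B2 were alike across the group labels (2.12 and 0.927), and B1 and B2 were not (7.21 and 0.696). Second-phase B1 was nearer to rest-phase B1 (3.79 times sampling noise and a correlation of 0.769) than to second-phase B2. By correlation it was closest to rest-phase A1 (0.884, at 5.31 times sampling noise), so the 2 measures differ on its nearest rest-phase group. Libraries labelled second phase thus went against their group columns, and 2 of them, A1 and B1, were nearer to rest-phase libraries than to the other library of their group. Whether all 4 had the stimulus that the labels give cannot be told from these tables, and results that rest on them are also given with each left out.

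Most flanking peaks were narrow and lay at a gene with a core promoter peak, and most of their genes had 1 flanking peak. Of the 13228, 13189 were 400 bp wide and the widest had 1084 bp. 6180 lay upstream and 7048 downstream of the start, of which 6003 overlapped the span of the assigned gene or transcript. They belonged to 8442 genes, 5430 with 1 such peak, 1949 with 2, 643 with 3 and 420 with 4 or more, up to 11 in a gene with many annotated starts. A core promoter peak, within 1 kb, was present at the gene of 11105 (84.0%). At the edges of the rule, 9 peaks lay at 1001 bp and 6 at 3000 bp, and the core promoter peaks reached 1000 bp.

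Flanking peaks took a small share of reads, larger in the later phases, while the core promoter share was smaller there. In the first phase they held 6.39%, 6.22%, 6.12% and 7.62% of reads in peaks (libraries A1, A2, B1, B2). Rest-phase libraries held 8.96%, 8.74%, 8.23% and 8.34%, and second-phase libraries 9.06%, 8.49%, 9.14% and 8.53%. The first-phase shares were all below those of the later phases, with means of 6.68% ± 0.82 (SD, n = 3), 8.57% ± 0.34 (SD, n = 4) and 8.80% ± 0.34 (SD, n = 4). Core promoter peaks held 48.8% to 59.1%, then 33.4% to 41.9%, then 27.1% to 37.7%. The ratio of flanking to core reads was 0.111, 0.105, 0.104 and 0.156 for first-phase libraries. Rest-phase values were 0.269, 0.250, 0.202 and 0.199, and second-phase values 0.277, 0.225, 0.337 and 0.243. It was 1.87-fold higher in the rest than in the first phase (1.74 to 2.17 with any 1 library left out), with no overlap, and was 1.18-fold higher in the second than in the rest phase, where the libraries overlapped. No p-value is given for these sums over the chosen peaks. In bulk libraries, fewer cells of a type and less open chromatin per cell cannot be told apart.

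**Figure D1:**
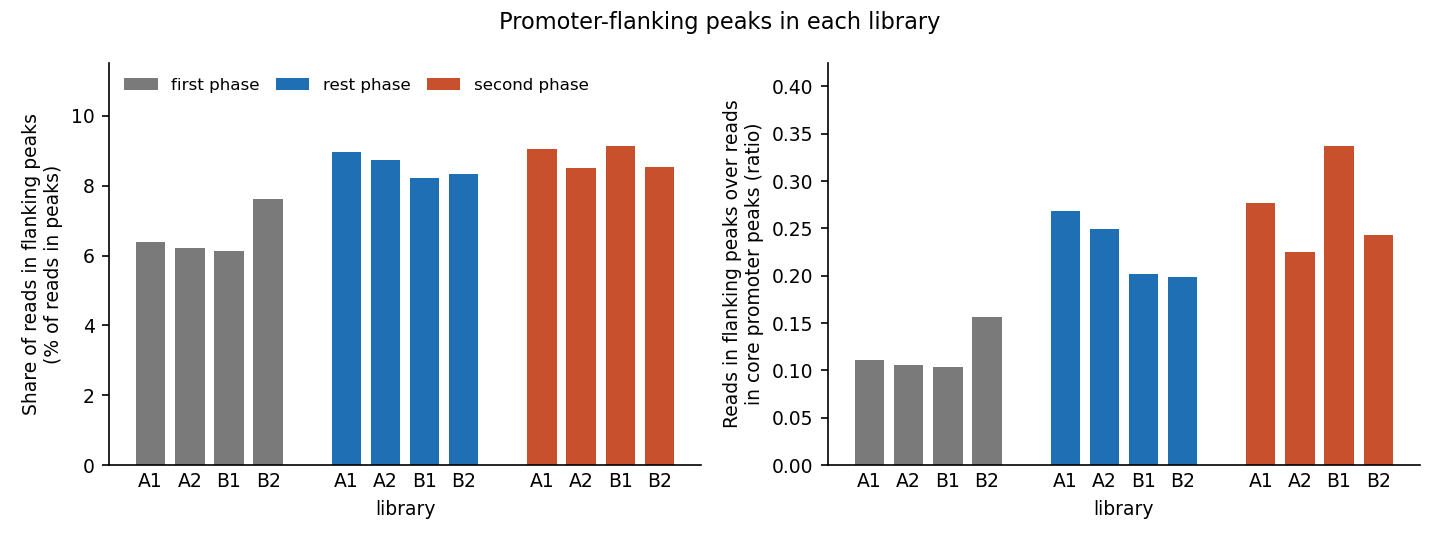
Share of reads in flanking peaks (left, % of reads in peaks) and ratio of reads in flanking to reads in core promoter peaks (right), 1 bar per library, coloured by phase. First-phase bars reach at most 7.62% and 0.156, below every bar of the later phases.

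The typical flanking peak was less open than a core promoter peak and more open than a peak outside promoters. Median levels of flanking peaks were 4.92 to 5.06 in the 12 libraries, those of core promoter peaks 5.82 to 6.61 and those outside promoters 4.51 to 4.65. The median of flanking minus core was −1.69 to −1.48 over first-phase libraries, −1.22 to −1.04 over rest-phase and −1.07 to −0.89 over second-phase libraries. Core medians were 6.48 to 6.61, then 6.03 to 6.25, then 5.82 to 6.00, on a scale where every library has the same distribution. Compared gene by gene over 11088 pairs, the flanking peak was above its own core peak in 12.7% to 14.2% of pairs in first-phase libraries, 16.6% to 18.7% in the rest phase and 19.4% to 21.9% in the second.

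The rest phase was compared with the first phase. The labels give 7 days of M-CSF culture for the rest phase and none for the first. The marker sums given above differed between these phases as well. Culture and cell mixture cannot be told apart in this comparison. By limma with quantile scaling (n = 4 and 3), 2718 of 13204 flanking peaks were higher in the rest phase at an adjusted p under 0.05 and 2361 were lower. These are 20.6% and 17.9% of flanking peaks, beside 19.8% and 18.7% of all 139557 peaks tested, so flanking peaks changed about as often as any peak. The median log2 fold was 0.05 (all peaks 0.02), and the middle 80% ran from −1.41 to 1.47. Core promoter peaks had another balance, with 12.5% higher and 31.9% lower of 23341, while peaks outside promoters had 21.3% higher and 15.8% lower. The balance moved with the scaling: with total reads in peaks, 29.2% of flanking peaks were higher and 10.8% lower (26.6% and 13.2% of all), and with the deposited scaling they were 24.2% and 4.57% (24.1% and 4.96% of all). These scalings moved the median of all peaks to 0.31 and 0.76. Of the 2718 higher peaks 2510 (92.3%) were called under all 3 scalings, and of the 2361 lower ones 602 (25.5%).

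Shares were similar at each distance and on both sides of the start. In steps of 250 bp from 1 to 3 kb on either side, 18.9% to 23.2% of peaks were higher and 15.4% to 20.05% lower. At 1 to 2 kb 20.3% were higher and 18.4% lower, and at 2 to 3 kb 20.9% and 17.2%. Upstream peaks had 20.9% and 17.4%, and downstream ones 20.3% and 18.3%. Peaks at genes with a core promoter peak had 21.2% and 18.3%, and peaks at genes without one 17.5% and 15.8%. None of these differences was tested.

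**Figure D2:**
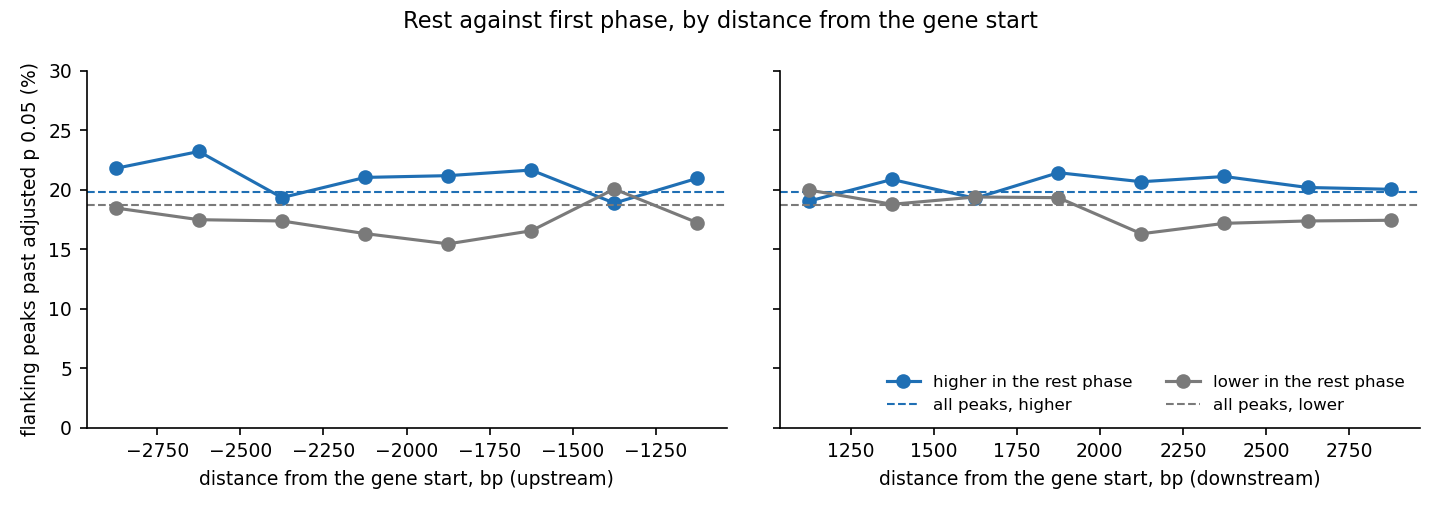
Share of flanking peaks (%) higher (blue) or lower (grey) in the rest than in the first phase at an adjusted p under 0.05 (limma), in 250 bp steps upstream (left) and downstream (right) of the gene start, with dashed lines for all peaks. Every step lies between 15.4% and 23.2%, near the dashed lines at 19.8% and 18.7%.

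The 12 largest rises, by the rule for named peaks, were log2 folds of 3.93 to 5.08, and 3 are given in full. Vma21 encodes an assembly factor of the proton pump that acidifies lysosomes. Its peak 1132 bp upstream (chrX:71814393-71814792) had first-phase levels of 3.22, 2.25, 2.09 and 1.97 and rest-phase levels of 7.36, 7.42, 7.22 and 7.44. The log2 fold was 5.08 (SE 0.30; limma adjusted p = 1.99e-07), and the 4 second-phase libraries stayed between 6.39 and 7.09. Its core promoter peak had a log2 fold of 0.17 (limma adjusted p = 0.665), so the flanking site opened beside a core that did not pass the test.

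Folr2 encodes folate receptor beta, a marker of resident macrophages. The peak 2941 bp downstream of its start (chr7:101853854-101854253) went from 3.55, 4.09, 3.20 and 4.36 to 8.95, 8.52, 8.33 and 8.40, a log2 fold of 4.83 (SE 0.29; limma adjusted p = 2.45e-07). In the second phase it stood at 8.99, 7.37, 8.63 and 8.08. Pfkp is a phosphofructokinase, the enzyme of the committed step of glycolysis. At 2940 bp downstream (chr13:6618713-6619112) its peak went from 3.55, 2.81, 3.38 and 3.42 to 8.22, 7.68, 7.46 and 7.45, a log2 fold of 4.38 (SE 0.28; limma adjusted p = 3.63e-07). The rule that picked these 3 sites took only peaks where no first-phase library overlapped a rest-phase one.

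The other peaks with the largest rises were those of Dph6 (log2 fold 4.73), which makes the diphthamide of elongation factor 2, Mtpn (4.43), Clca4c-ps (4.39), Mir1960 (4.24), the Ras-inhibiting Rasa4 (4.23), the aminopeptidase Npepps (4.09), A230028O05Rik (4.07), the cortactin-binding Cttnbp2nl (4.03) and B230216N24Rik (3.93). At Npepps the core promoter peak moved the other way, with a log2 fold of −2.28 (limma adjusted p = 1.96e-05). At Cttnbp2nl and B230216N24Rik the core rose too, by 2.14 and 2.07 on the log2 scale. Mir1960 differed within the second phase, with 8.12 and 8.05 in libraries A1 and B1 and 5.70 and 5.66 in A2 and B2, against 7.69 to 8.09 in the rest phase.

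The 12 largest falls included peaks near S100a8, Alas2 and Hbb-b1. S100a8 is a subunit of calprotectin, the main cytosolic protein of neutrophils. Its peak 2299 bp downstream (chr3:90671610-90672009) went from 8.20, 8.00, 7.15 and 8.66 in the first phase to 2.70, 2.17, 2.54 and 3.53 in the rest phase, a log2 fold of −5.28 (SE 0.42; limma adjusted p = 1.13e-06). Alas2 encodes the first enzyme of haem synthesis in red cells. Its peak 2153 bp downstream (chrX:150549612-150550011) went from 7.55, 7.50, 7.95 and 6.58 to 1.58, 2.17, 3.12 and 2.70, a log2 fold of −4.97 (SE 0.44; limma adjusted p = 2.22e-06). Both stayed low in the second phase, at 1.58 to 4.33.

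Beta-globin Hbb-b1 (log2 fold −4.71, core −4.83) fell at both the flank and the core. Other large falls stood beside a core with a small fold: dolichol synthesis gene Dhdds (−5.24, core −0.33), AMP kinase subunit Prkab1 (−4.93, core −0.13), the protease Sppl2b (−4.99, core −0.20), Gsap (−4.72, core −0.07) and Serpinb6b (−4.68, core 0.36). None of these 5 core peaks passed the test. Gsr, glutathione reductase (−5.23), the iron sensor Fbxl5 (−5.21) and Coq4 of ubiquinone synthesis (−5.08) were also among the 12 largest falls. Whether such a distal site belongs to the named gene or to a neighbour is not given by the tables, which assign the nearest start.

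**Figure D3:**
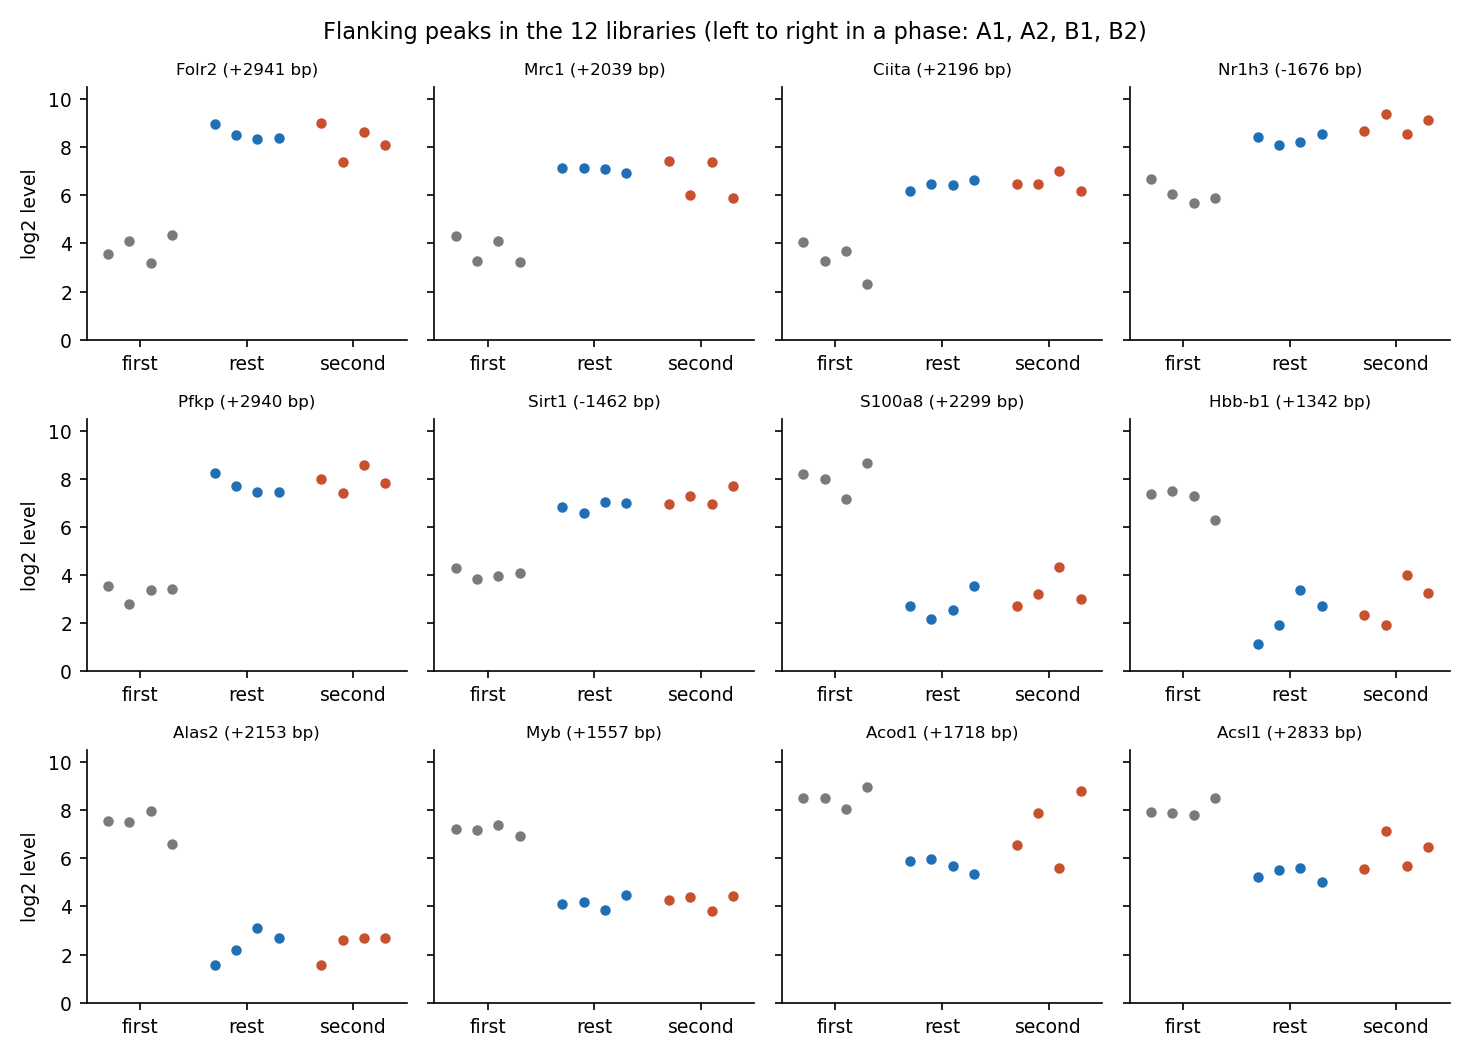
Log2 level of 12 named flanking peaks in the 12 libraries, 1 point per library, grouped and coloured by phase, with the distance from the gene start in each title. Folr2, Mrc1, Ciita, Nr1h3, Pfkp and Sirt1 are higher and S100a8, Hbb-b1, Alas2, Myb, Acod1 and Acsl1 lower in the rest than in the first phase, and Acod1 and Acsl1 stand higher in second-phase A2 and B2 than in second-phase A1 and B1.

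Among lists of cell type genes, 11 of 16 neutrophil flanking peaks and 8 of 13 of erythroid and megakaryocyte genes fell, beside 18.7% of all peaks lower and 19.8% higher. For neutrophil genes 0 rose and 5 did not pass (median log2 fold −1.36, beside 0.02 over all peaks). The median level of this list was 7.01, 6.72, 6.44 and 7.24 in first-phase libraries and 4.67, 4.89, 5.29 and 5.42 in the rest phase. The summed neutrophil markers were between 577 and 1433 in the first and between 169 and 221 in the rest phase, and their part in the result was not tested. Among erythroid and megakaryocyte genes 3 of 13 rose and 8 fell (median −0.97), while the summed erythroid markers (6 of 6 with peaks, none at 0) were between 155 and 274 in the first phase and between 89.97 and 111 in the rest phase, and the megakaryocyte ones (5 of 5, none at 0) between 180 and 214 and between 272 and 324. For B cell genes 0 of 9 rose and 3 fell, among them Igll1, a surrogate light chain of the pre-B cell receptor (log2 fold −3.75, SE 0.36; limma adjusted p = 4.12e-06). B cell markers (8 of 8, none at 0) summed to 321 to 697 and 345 to 414. Myb, a factor of blood progenitors, fell by 2.99 on the log2 scale at 1557 bp downstream (SE 0.28; limma adjusted p = 3.51e-06), and its core by 3.13. The list of stem and progenitor genes was even, with 2 of 8 higher and 2 lower. The summed stem and progenitor markers (7 of 7 with peaks, none at 0) were higher in the rest phase, between 458 and 551, than in the first, between 247 and 394.

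Small counts were found for the remaining cell types. Klrb1c, a receptor of NK cells, rose by 1.69 (limma adjusted p = 0.000924), 1 higher and 1 lower of 3 T and NK cell peaks. The summed T and NK cell markers (7 of 8 with peaks, none at 0) went the other way. They were between 231 and 268 in the first phase and between 126 and 178 in the rest phase. Siglech, a marker of plasmacytoid dendritic cells, fell by 2.23 on the log2 scale (limma adjusted p = 0.00152), 1 of 2 peaks of dendritic, mast and basophil genes. Col1a1, a collagen of stromal cells, fell by 1.08 on the log2 scale (limma adjusted p = 0.0182), 1 of 6 stromal peaks. That limma call was lost under both other scalings (adjusted p = 0.16 and 0.86) and without rest-phase A1 (adjusted p = 0.0612). With total reads in peaks, 8 of the 16 neutrophil peaks and 6 of the 13 erythroid and megakaryocyte peaks remained lower, beside 13.2% of all peaks with that scaling.

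Lists of macrophage programs are given beside 19.8% of all peaks higher and 18.7% lower, and no difference between lists was tested. Genes of alternative activation, the tissue repair program, had 9 of 14 flanking peaks higher and 3 lower (median 0.81). Mrc1, the mannose receptor, had its peak 2039 bp downstream (chr2:14231431-14231830) at 4.30, 3.26, 4.09 and 3.21 in first-phase and at 7.15, 7.12, 7.10 and 6.93 in rest-phase libraries, a log2 fold of 3.33 (SE 0.29; limma adjusted p = 1.85e-06). Its core peak had a log2 fold of 0.78 (limma adjusted p = 0.160). In the second phase the Mrc1 flank split, with 7.41 and 7.37 in A1 and B1 and 6.02 and 5.89 in A2 and B2. The macrophage core list, of genes that define the lineage, had 3 of 14 higher and 3 lower (median −0.02, and 0.21 with total reads in peaks), near the shares over all peaks. Its most clearly changed peak, near the signalling adaptor Tyrobp, fell by 3.06 on the log2 scale (limma adjusted p = 4.35e-06).

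Inflammatory genes had 11 of 37 higher (29.7%) and 6 lower (16.2%), with a median of 0.41, beside 19.8% and 18.7% of all peaks. Interferon response genes had 3 of 28 higher (10.7%) and 5 lower (17.9%). With total reads in peaks these turned to 5 of 28 higher and 1 lower, beside 26.6% and 13.2% of all peaks. The median of the list turned from −0.17 to 0.29, while that of all peaks moved to 0.31. Ciita, the master activator of MHC class II genes, rose at 2196 bp downstream by 3.15 (SE 0.37; limma adjusted p = 1.65e-05) while its core fell by 0.97 on the log2 scale. Acod1 makes itaconate, an antibacterial metabolite of activated macrophages. Its flank, printed above, went from 8.50, 8.49, 8.06 and 8.97 to 5.90, 5.97, 5.67 and 5.35, a log2 fold of −2.90 (SE 0.27; limma adjusted p = 2.90e-06). Immediate early genes, switched on within minutes of a stimulus, had 8 of 36 higher and 6 lower, and Fosl1, an AP-1 subunit, fell by 3.04 on the log2 scale. Osteoclast genes had 12 of 32 higher and 9 lower, with Mmp9, a matrix protease, lower at 1670 bp upstream (log2 fold −2.63).

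Lipid genes are the subject of the study's title. Beside 19.8% of all peaks higher and 18.7% lower, cholesterol genes had 8 of 16 flanking peaks higher and 1 lower (median 0.94), and those of triglyceride storage and lipolysis 8 of 19 higher and 4 lower (median 0.85). Fatty acid synthesis genes had 1 of 15 higher and 0 lower (median 0.01), fatty acid oxidation 2 of 17 higher and 3 lower (median 0.06), and acyl-CoA synthetases and fatty acid transport 3 of 17 higher and 3 lower (median 0.29). Most flanking peaks of the last 3 lists did not pass (14 of 15, 12 of 17 and 11 of 17), and no difference between lists was tested. Nr1h3, the oxysterol receptor LXR alpha, had its flank 1676 bp upstream at 6.69, 6.04, 5.69 and 5.90 in first-phase and at 8.42, 8.10, 8.20 and 8.53 in rest-phase libraries, a log2 fold of 2.43 (SE 0.23; limma adjusted p = 3.23e-06), with a core fold of 0.01. Second-phase levels were 8.68, 9.39, 8.54 and 9.11. Lpin2, a phosphatidate phosphatase, fell by 3.64 on the log2 scale (SE 0.43; limma adjusted p = 1.70e-05), Acadl, an acyl-CoA dehydrogenase, fell by 2.09, and Elovl5, a fatty acid elongase, rose by 0.92 (limma adjusted p = 0.0245). The limma call of Acadl was lost with the scaling of the deposited tables (adjusted p = 0.26), and that of Elovl5 without first-phase B1, rest-phase A1 or rest-phase A2 (adjusted p = 0.0588, 0.0680 and 0.0614).

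Acsl1, the long-chain acyl-CoA synthetase that charges fatty acids for further use, had 3 flanking peaks, 1 higher and 2 lower in the rest phase. The one 2833 bp downstream (chr8:46533897-46534296) went from 7.93, 7.89, 7.81 and 8.49 to 5.21, 5.52, 5.59 and 5.02, a log2 fold of −2.80 (SE 0.26; limma adjusted p = 3.49e-06). The groups did not overlap, and the core peak had a log2 fold of −0.25 (limma adjusted p = 0.184). In the second phase this flank stood at 5.57, 7.13, 5.70 and 6.49, so A2 and B2 lay between the earlier phases and A1 and B1 near the rest phase.

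Glycolysis genes had 10 of 36 flanking peaks higher (27.8%) and 6 lower (16.7%; median 0.29), and chromatin enzymes 11 of 36 higher (30.6%) and 6 lower (16.7%; median 0.11), beside 19.8% and 18.7% of all peaks. At Pfkp the core rose with the flanking peak described above, by 0.47 on the log2 scale (limma adjusted p = 0.0386). Of the 5 flanking peaks of Pfkp 2 were higher and 1 was lower, and the lowest log2 fold was −1.41. Sirt1, a histone deacetylase, rose 1462 bp upstream from 4.30, 3.85, 3.96 and 4.07 to 6.81, 6.58, 7.04 and 6.97, a log2 fold of 2.76 (SE 0.27; limma adjusted p = 3.87e-06), while its core fell by 1.72 on the log2 scale (limma adjusted p = 0.00013).

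Across genes, flank and core often changed apart. Over the 11088 pairs of a flanking peak with the core peak of its gene, the log2 folds of rest over first phase had a correlation of 0.24, a description across pairs from the same libraries. Where the flank was higher (2348 pairs), the core was higher in 535 (22.8%), lower in 680 (29.0%) and did not pass in 1133. Where the flank was lower (2027 pairs), the core was lower in 990 (48.8%), higher in 182 (8.98%) and did not pass in 855. Over all pairs 14.6% of cores were higher and 37.2% lower. These shares were not tested, since pairs of 1 gene share their core.

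Some genes changed at several flanking peaks. Of 2322 genes with a higher and 1987 with a lower peak, 299 had both. Genes named above were among those with both. Pfkp had 2 higher and 1 lower of 5, Rasa4 and Coro1c each 2 higher and 1 lower of 4, and Gsap and Acsl1 each 1 higher and 2 lower of 3. At least 2 higher peaks were found at 335 genes, 279 of them with none lower, and at least 2 lower peaks at 310 genes, 257 of them with none higher. In each direction 42 genes had 3 or more called peaks and none the other way. The following were chosen after their values were seen. Rptor, the scaffold of the growth kinase complex mTORC1, had 5 of 5 peaks higher (log2 folds 1.16 to 2.81). Spire1, an actin nucleator, had 4 of 4 higher (1.02 to 2.89), Lgals3, galectin 3 of macrophages, 3 of 3 (1.89 to 3.19), Plin2, the coat protein of lipid droplets, 3 of 3 (1.51 to 1.90) and the cell cycle inhibitor Cdkn1a 3 of 3 (1.19 to 1.99). In the other direction, Slc12a3, a salt cotransporter, had 5 of 5 lower (−4.28 to −1.01), Mmp9 4 of 4 (−3.55 to −1.22), Cmah, an enzyme of sialic acid, 4 of 4 (−4.47 to −1.26) and P2rx7, the ATP receptor upstream of the inflammasome, 3 of 3 (−2.32 to −1.38). Peaks of 1 gene are neighbours on the same chromosome and not independent.

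Libraries labelled second phase were compared with those labelled rest phase. The labels differ by 16 h of IFN-γ and LPS, and second-phase A1 and B1 were close to rest-phase libraries, as given above. By limma with quantile scaling (n = 4 and 4), 0 of 13204 flanking peaks passed an adjusted p of 0.05 in either direction, as did 0 of all peaks (0% higher and 0% lower), while 1528 (11.6%) had an unadjusted p under 0.05, beside 11.4% of all peaks. With total reads in peaks the counts were 0 and 1280 (9.69%, beside 9.05% of all peaks). With the scaling that the deposited tables use, 12 flanking peaks were higher (0.0909%, beside 0.134% of all peaks) and 0 lower (beside 0.00143% of all). Under that scaling 361 (2.73%, beside 3.35% of all peaks) had an unadjusted limma p under 0.05. The 12 lay near 4933432I03Rik, Gbp4, Pigk, Cdk14, Htr3b, Procr, Kdm4a, D130040H23Rik, Rngtt, Ankib1, Plagl2 and a gene without a symbol, and are named here after their values were seen. Without second-phase A2, or without second-phase B2, 0 were called under that scaling. Without second-phase A1 or B1 0.439% and 0.545% of flanking peaks were higher, beside 0.745% and 0.787% of all peaks.

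All 12 had the same shape: second-phase A2 and B2 lay above second-phase A1 and B1 and above every rest-phase library. Gbp4, an interferon-induced GTPase that acts against intracellular pathogens, had its peak 1808 bp upstream (chr5:105141394-105141793) at 2.32, 2.54, 2.54 and 2.39 in the rest phase and at 2.81, 7.99, 2.95 and 8.36 in the second. Its log2 fold was 3.09 (SE 1.11; limma adjusted p = 0.422) with quantile scaling and 3.01 (limma adjusted p = 0.00091) with that of the deposited tables. Pigk, the enzyme that attaches GPI anchors, went from 2.14, 2.77, 2.54 and 2.14 to 2.91, 7.62, 3.99 and 7.47. Procr, the protein C receptor, had 2.58, 5.63, 4.18 and 5.93 in the second phase, and Kdm4a, a histone demethylase, 2.91, 7.65, 3.63 and 7.22.

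Flanking peaks of interferon response genes were compared as a list. The median level of the 28 flanking peaks of interferon response genes was 5.21, 5.10, 4.96 and 5.15 in rest-phase libraries and 5.29, 6.08, 5.00 and 6.18 in the second phase, where A2 and B2 were the highest. Of these, 24 had a log2 fold above 0 (median 0.77, beside −0.08 over all peaks). By limma with quantile scaling 0 of 28 passed, as did 0 of all peaks. An unadjusted limma p under 0.05 was found for 8 of the 28, beside 11.4% of all peaks. Ccl5, a T cell attracting chemokine, stood at 3.45, 3.22, 2.54 and 3.38 in the rest phase and at 3.66, 5.78, 4.50 and 6.74 in the second (log2 fold 2.10, SE 0.59; limma adjusted p = 0.422). Oasl1, an interferon-induced sensor protein, had a log2 fold of 1.79 (SE 0.57; limma adjusted p = 0.422). The second Acsl1 flank, 2645 bp upstream, stood at 3.18, 3.63, 3.87 and 3.53 and then at 3.66, 5.48, 4.18 and 5.66 (log2 fold 1.25, SE 0.47; limma adjusted p = 0.422). Egr3, an immediate early factor, stood at 7.43, 8.10, 8.14 and 8.39 in the rest phase and at 7.23, 7.45, 6.95 and 6.88 in the second, where A1, B1 and B2 lay below all rest-phase libraries and A2 below all but 1 (log2 fold −0.78, SE 0.21; limma adjusted p = 0.422).

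**Figure D4:**
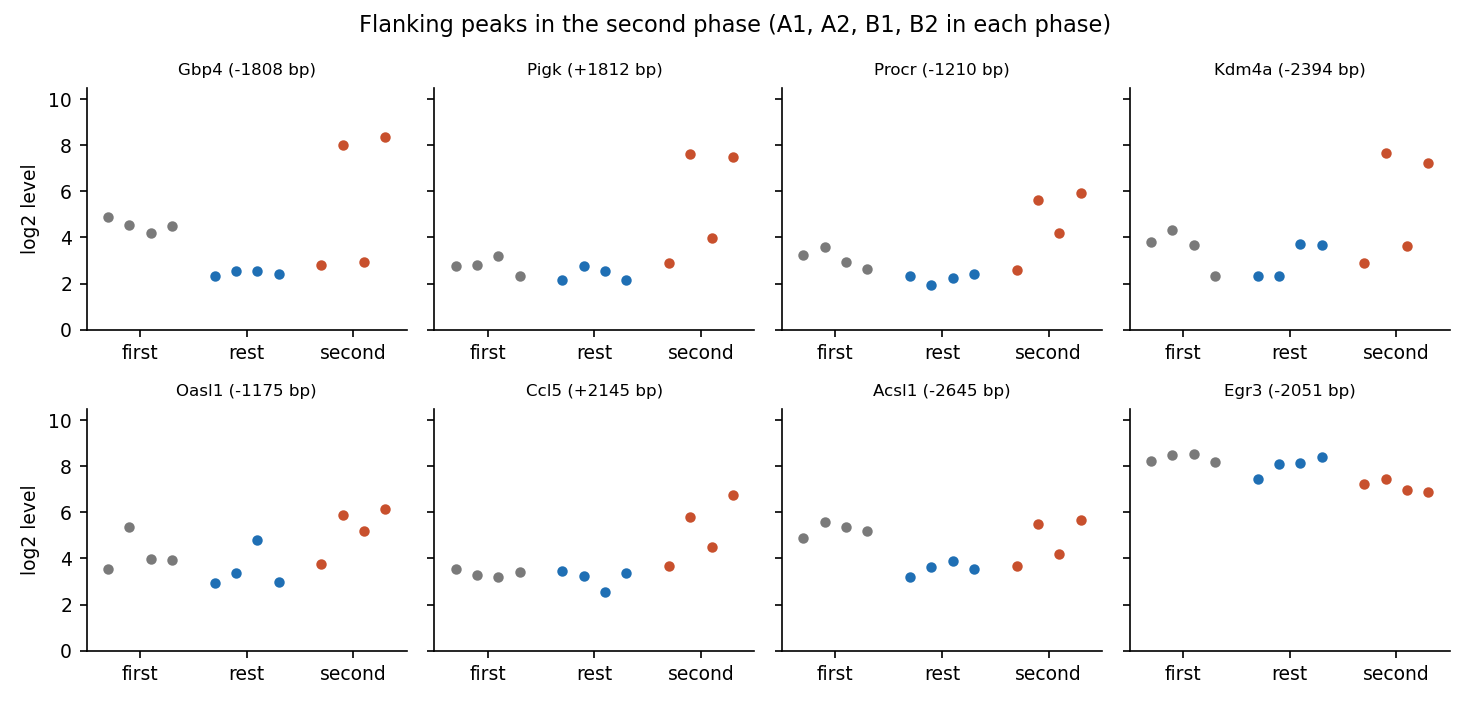
Log2 level of 8 flanking peaks in the 12 libraries, 1 point per library in the order A1, A2, B1, B2 within each phase, coloured by phase. Within the second phase A2 and B2 lie above A1 and B1 at every gene but Egr3, whose second-phase levels are 6.88 to 7.45.

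Within the rest phase, groups A and B were compared by the authors' deposited calls. In the authors' deposited table, 5716 of 13228 flanking peaks (43.2%) were higher in A at an adjusted p under 0.05, beside 39.7% of all peaks, and 17 (0.129%) were higher in B, beside 0.0929% of all. Flanking peaks had a median log2 fold of A over B of 1.08 in the authors' deposited table, and all peaks 1.04. This balance rested on the scaling: by limma on the recovered reads the median of flanking peaks was −0.038 with quantile scaling and −0.0089 with total reads in peaks, so its direction turned, and 1.36 with the deposited scaling. By limma with quantile scaling (n = 2 and 2) 849 flanking peaks (6.43%; 6.48% of all) were higher in A and 695 (5.26%; 5.56% of all) in B. With total reads in peaks they were 14.1% and 6.44% (13.1% and 8.29% of all), and with the deposited scaling 56.9% and 0.401% (54.9% and 0.461% of all). With any 1 of the 4 libraries left out, 0 were called by limma with quantile scaling. The A libraries held 18602644 and 15990425 reads in peaks and the B libraries 5454821 and 8770052, and the part of depth in these calls was not tested.

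The 17 peaks higher in B belonged to 16 genes, and several of those are known to be induced within minutes of a stimulus. They are named here after their values were seen. Both Fos peaks, 1139 and 2443 bp downstream of the start of this AP-1 subunit, were among them. The nearer one (chr12:85476050-85476449) stood at 6.06, 5.97, 5.63 and 5.31 in first-phase, 4.60, 4.42, 9.15 and 9.06 in rest-phase and 4.56, 4.09, 4.50 and 4.61 in second-phase libraries, so it was high in both rest-phase B libraries and in no other. Group means in the authors' deposited table were 5.29 (A) and 8.59 (B), with a shrunken log2 fold of −2.75 and an adjusted p of 2.02e-05. By limma with quantile scaling the log2 fold was −4.37 (SE 0.18; adjusted p = 0.000104).

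The same pattern held at Jun, the partner of Fos, with 4.62 and 4.04 in A and 8.45 and 8.87 in B. Egr1, a zinc finger factor, had 2.77 and 3.91 in A and 8.68 and 9.04 in B. Zfp36 encodes a protein that destroys cytokine mRNAs, and its flank stood at 4.89 and 4.86 in A and 8.45 and 8.60 in B. In the first phase Zfp36 was already at 6.02 to 7.57. Rhob, a small GTPase, had 5.17 and 4.99 against 8.27 and 8.61, Ier2 6.51 and 6.78 against 9.25 and 9.74, and the metal-binding Mt2 3.98 and 3.81 against 8.23 and 8.33. At Id3, an inhibitor of helix-loop-helix factors, the A libraries differed, with 3.10 and 5.35 against 8.48 and 8.87 in B.

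S100a9, the partner of S100a8, had another history: 8.50, 8.36, 7.92 and 9.06 in the first phase, then 2.32 and 2.77 in rest-phase A and 5.51 and 5.17 in B. Its limma log2 fold of A over B was −2.99 (SE 0.42; adjusted p = 0.00416). At Cpne5 and Tgm2 every first-phase library was likewise above every rest-phase one. The remaining genes were Ccdc148, Sat1, Mcrs1, Mapkap1 and Olfm4, for the last of which the authors' deposited table lists 0 for A and 3.09 for B. Of the 16 peaks with recovered reads 12 lay downstream and 4 upstream of the start. As a list, immediate early genes had 19 of 36 flanking peaks higher in B and 0 in A by limma with quantile scaling. Of all peaks, 5.56% were higher in B and 6.48% in A by the same test. By the authors' deposited calls, 6 of the 36 were higher in B and 4 in A, beside 0.0929% and 39.7% of all peaks. The difference between the list and all peaks was not tested. The median level of the list was 6.29 and 6.16 in rest-phase A and 7.66 and 8.06 in B, and 5.97 to 6.67 in the second phase.

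**Figure D5:**
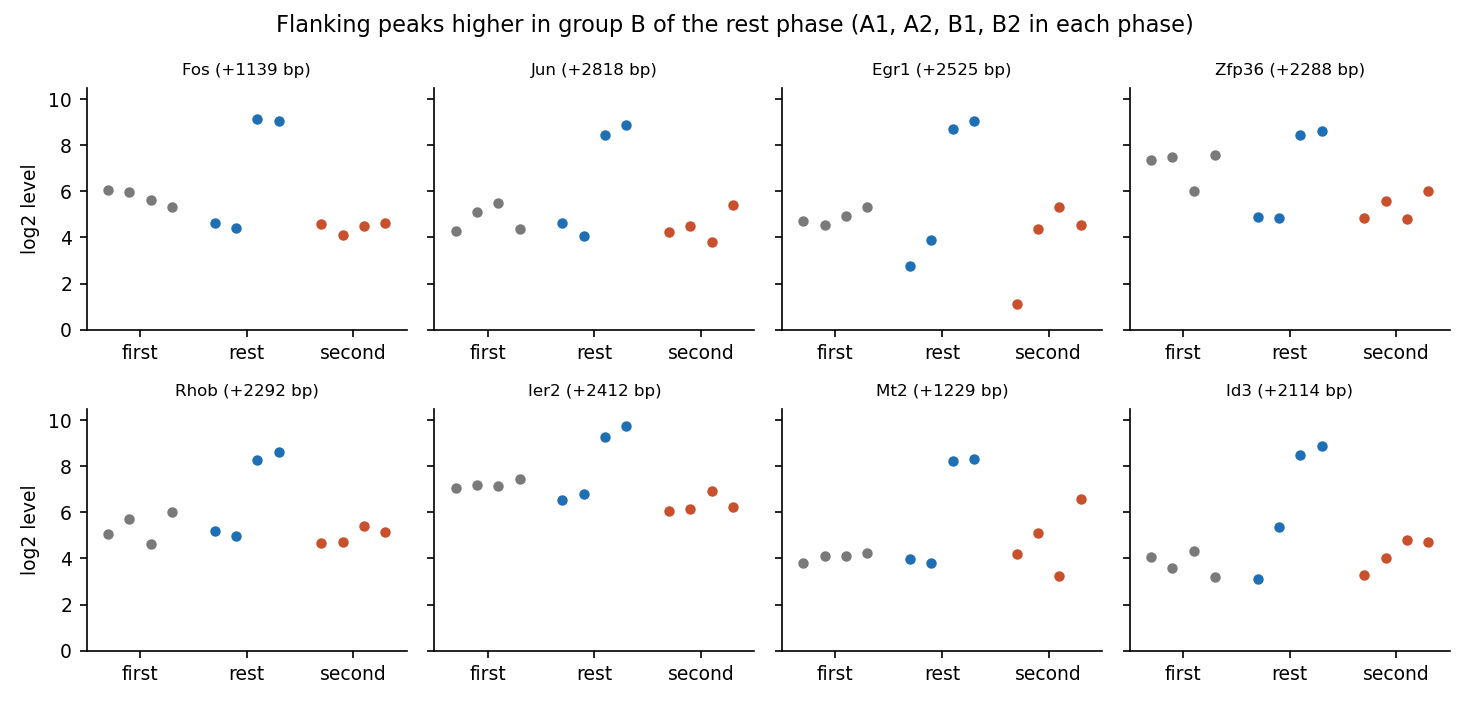
Log2 level of 8 flanking peaks in the 12 libraries, 1 point per library in the order A1, A2, B1, B2 within each phase, coloured by phase. In the rest phase the B libraries stand at 8.23 or above and the A libraries at 6.78 or below.

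Largest among the peaks higher in A was that of Rapgef2, an activator of Rap GTPases, with group means of 7.38 (A) and 3.21 (B) and a log2 fold of 3.30 in the authors' deposited table. The A libraries stood at 6.51 and 6.29 and the B libraries at 3.12 and 3.90. Ifit2, an interferon-induced protein, had means of 7.04 and 2.95 and a fold of 3.15 in the authors' deposited table, with levels of 6.11 and 6.03 against 3.53 and 3.21. Napa, of vesicle fusion, the kinase Map3k12, the transporter Slc6a18 and the tetraspanin Tspan3 followed in the authors' deposited table, with log2 folds of 3.27, 3.24, 3.15 and 3.15. Each of these 6 peaks was also higher in A by limma with quantile scaling, with log2 folds of 2.30 to 3.03.

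Second-phase calls in the authors' deposited table also lay nearly all on the side of A, and none passed on the recovered reads. Higher in A in the authors' deposited table were 4127 flanking peaks (31.2%), beside 26.7% of all peaks, and 1 was higher in B, beside 0.00429%. The median log2 fold of flanking peaks there was 0.92 (0.86 over all peaks), against 0.029 (quantile), −0.23 (total reads) and 1.22 (deposited scaling) by limma, and 2637 flanking peaks are listed in the authors' deposited table at an adjusted p of 1. By limma, 0 flanking peaks passed in either direction under any of the 3 scalings, as did 0 of all peaks. An unadjusted limma p under 0.05 was found for 86 (0.65%, quantile), 98 (0.74%, total reads) and 500 (3.79%, deposited scaling) of them. Over all peaks these shares were 0.77%, 0.97% and 3.82%. Srp68, of the signal recognition particle, had the largest fold in the authors' deposited table, 2.21 with means of 5.18 (A) and 2.05 (B) and an adjusted p of 0.0242. The A libraries stood at 5.07 and 3.75 and both B libraries at 2.32. The single peak higher in B lay near Mfsd4a, a transporter, and stood at 1.58 and 1.12 in A and 3.99 and 3.49 in B, after 5.77 to 7.32 in the first phase. In the first phase, 0 flanking peaks were called in either direction in the authors' deposited table (0% of all peaks). There 59 of 13228 flanking peaks had an unadjusted p under 0.05, beside 812 of all 139999, and the smallest adjusted p of a flanking peak was 0.99997. By limma 0 were called, and 388 (2.94%, beside 3.74% of all peaks) had an unadjusted p under 0.05 with quantile scaling.

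The 8 flanking peaks with the highest minimum level over all libraries, open in every phase by that choice, included peaks near Sin3a, a scaffold of histone deacetylases, the MYC antagonist Mnt, Angptl6, Mir26b, the clock repressor Nr1d1, the AP-1 subunit Junb and Cpeb4. The Sin3a peak, 1389 bp downstream (chr9:57073429-57073828), stood between 9.73 and 10.14 in all 12 libraries. Nr1d1 had the clearest step, from 9.13 to 9.40 in the first phase to 9.88 to 9.99 in the rest phase, with no overlap. As chosen by their levels, they are described without a test.

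Promoter letters were described for genes with a flanking peak. A RefSeq window was matched for 6509 of the 8442 genes. The median window had 59.3% GC and 18 CpG sites, beside 52.7% and 7 over all 27025 windows. The SP and KLF motif GGGGCGGGG stood in 20.03% of these windows (11.6% of all), the E-box CACGTG in 9.17% (7.24%), and the AP-1 motif TGANTCA in 5.91% (7.93%). Genes with only rising flanks in the rest phase (1574) and those with only falling ones (1317) were alike in GC (60% and 59.3%) and in the AP-1 motif (5.84% and 6.23%), and held the ETS motif CCGGAAGT in 7.12% and 4.10% of windows. These shares are descriptions of core promoter letters, and no difference between them was tested.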

How the data were processed

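Chromatin accessibility was measured by ATAC-seq in 12 libraries. Per the submitters' processing notes, mm10 was used with DiffBind 3.14.0 and DESeq2, with HOMER 5.1 and MACS2, and with Picard 3.2.0, Bowtie2 2.5.4, bedtools 2.28.0 and deepTools 3.2.1, and no role is stated for any of them. The authors deposited 1 annotated table per phase over the same peaks, with log2 group means of normalized reads, a shrunken log2 fold, a p-value and an adjusted p-value per peak, normalized separately for each phase. Deposited folds were turned to A over B by the sign of the means.

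Whole reads recovered from the deposited log2 means, as the only pair of whole numbers that fits each group mean, gave reads for 12 libraries in 139557 peaks, and 442 peaks were left out. Reads were quantile-scaled over the libraries compared (levels: over all 12), and log2 (value + 1) was tested with limma 3.58.1 in R 4.3.3 over all peaks, with Benjamini-Hochberg adjustment. The recovery and the test were tested on simulated data. Between phases A and B were pooled. Within a phase the authors' deposited adjusted p-values are the main calls and limma the alternative. Alternatives were other scalings, a pseudocount of 5, a mean of at least 10 reads, adjusted p under 0.01, 6 group means, and each library left out.

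Flanking peaks, gene lists and markers were chosen with earlier results of these data known. Named peaks are the 12 largest folds each way between phases among called peaks whose libraries do not overlap and whose level is at least 6 in the higher phase, the 6 largest deposited folds each way within a phase, the 8 highest minimum levels, and the smallest p of each of 20 gene lists, 1 peak per gene. Regions for sequences were limited to those overlapping a RefSeq window. The permutation test planned for shares of reads is not printed, since it would give a p over the chosen peaks. Sequences come from RefSeq (GRCm38.p6). Total library sizes were not used here, so depth means reads in peaks. 2 of the named peaks are not reported here.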

Additional observations from a re-analysis of the deposited data

How the results depend on the processing

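For the rest against the first phase, the share of higher flanking peaks stayed within 1.5 times its value under the alternatives run (17.3% to 21.4% with a library left out), while the lower share of 17.9% became 4.57% with the scaling of the deposited tables and 10.8% with total reads in peaks (14.9% to 18.5% with a library left out). For the second against the rest phase, higher peaks went from 0% to 0.0909% with the scaling of the deposited tables. That scaling with 1 library left out was added after seeing the data. It gave 0.0151% and 0.0227% higher without rest-phase A1 and A2, 0.0909% and 0.0606% without rest-phase B1 and B2, 0.439% and 0.545% without second-phase A1 and B1, and 0% without second-phase A2 or B2. It gave 0.00757% lower without rest-phase A1 or second-phase B1, 0.0530% without second-phase A1 and 0% otherwise. With quantile scaling, leaving out a library gave 0%. In the rest phase, the 43.2% higher in A became 17.9% at an adjusted p under 0.01, 6.43% by limma with quantile scaling and 14.1% with total reads. The 0.129% higher in B became 0.0680%, 5.26% and 6.44%, and 0.401% by limma with the deposited scaling. The limma shares with quantile scaling, 6.43% and 5.26%, became 0% with any library left out, and the deposited calls were not rerun without a library. In the second phase, the 31.2% higher in A and the 0.00756% higher in B became 0% at an adjusted p under 0.01 and by limma under every scaling. Limma with quantile scaling gave 0% with all libraries and with any left out. Of the share higher in B, 0.0138% was found at 1 to 2 kb alone and 0% at 2 to 3 kb. The difference in the share of reads, 1.89 percentage points, was 0.988 for peaks at 1 to 2 kb and 0.898 at 2 to 3 kb alone. The cause of these changes was not tested, beyond the smaller sets and stricter thresholds themselves. A lone library was assumed to vary like the others. Medians under other scalings were added after seeing the data. The median of A over B turned from 1.08 to −0.038 (quantile) and −0.0089 (total reads) in the rest phase, and from 0.92 to 0.029 (quantile) and −0.23 (total reads) in the second. Between the rest and first phases, medians of 5 lists turned from below to above 0 with total reads and the deposited scaling, which raise the median of all peaks to 0.31 and 0.76: macrophage core (0.21 and 0.67), interferon response (0.29 and 0.76), osteoclast (0.39 and 0.85), B cell (0.092 and 0.52) and stromal (0.10 and 0.55). Among named peaks between phases, total reads ended 1 of 61 calls, the deposited scaling 2 of 61, and leaving out a library 4 of 488. Within a phase, limma with quantile scaling ended 7 of 19 deposited calls, and 76 of 76 with a library left out. No paired analysis was possible because the recovered libraries carry no replicate numbers of the labels.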
